A study of Rattus norvegicus with 6 samples.

Results

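The genes that encode the proteins of the cytosolic ribosome were followed in the renal cortex of rats given 1,2-dibromoethane. The members were chosen with earlier results of these data known, by a rule on names and not on values. It took every probe whose accession belongs to a gene symbol of the form Rpl or Rps plus a number, Rplp0 to Rplp2 or Rpsa. The Rps6k kinases and pseudogenes were left out. This gave 84 genes of the 15645 with a symbol and 244 of the 61453 probes analysed. By role, 41 were genes of the large subunit, 30 of the small subunit, 3 of the stalk and 10 were paralogues with an l in the suffix, such as Rpl3l. Rpl26, Rpl37, Rps9 and Rps27l were not analysed here.

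Gene expression was measured in 6 male Sprague-Dawley (Crl:CD(SD)) rats bought at 5 weeks of age, 1 single-colour array per animal. The control group was 3 rats given corn oil for 4 weeks, and the treated group was 3 rats given 1,2-dibromoethane at 75 mg/kg/day for the same time; the compound is an alkylating halocarbon once used as a fumigant. The labels name no genetic change, and whole renal cortex was taken, a mixture of tubule, vessel, glomerular and immune cells. In such bulk RNA, fewer cells of a type and less RNA per cell cannot be told apart.

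A ribosome is built from a small subunit, which reads the messenger RNA, and a large subunit, which joins the amino acids, and each ribosomal protein occurs once in it except for the acidic proteins of the stalk. The messengers of these proteins are among the most abundant of the cell, and most begin with a C and a run of pyrimidines, the 5′ terminal oligopyrimidine (TOP) tract, through which the mTOR kinase and the RNA-binding protein Larp1 control their translation and stability together. In the kidney this control is known from the growth of proximal tubule cells after loss of renal mass, when phosphorylation of Rps6 rises.

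Start site sequences are shown first, because the TOP tract is the feature that ties these genes together and lies outside the rule that chose them. The windows are from RefSeq's promoter table of the GRCr8 assembly, read 5′ to 3′ on the strand of the gene, from 10 bases before the annotated start to 20 bases from it on. Capitals mark the longest run of C and T that reaches within 5 bases of the start, as far as it lies in the window. The first 6 genes have the tract at the annotated start. The other 4 are a member with the tract and a small difference, then 3 members without it there. The genes printed do not represent the members, and no link between tract and difference can be read from them. Rpl18, Rpl21 and Rpl11, not printed, lack the tract at the annotated start and differed by -0.22, -0.21 and -0.20. In Rpl21 a long pyrimidine run ends a few bases before that start. Medians with and without it, given further on, were -0.156 and -0.140.
Rpl14, chr8:129163610-129163639, plus strand: ggCCCTCTCCCTTCTCgctgagcgccgcca
Rps18, chr20:4933735-4933764, plus strand: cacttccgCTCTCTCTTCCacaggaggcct
Rps7, chr6:50999426-50999455, minus strand: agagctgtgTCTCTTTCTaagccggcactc
Rpl22, chr5:168117951-168117980, plus strand: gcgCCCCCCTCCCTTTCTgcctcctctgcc
Rpl35a, chr11:81235002-81235031, minus strand: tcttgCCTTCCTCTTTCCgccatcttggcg
Rplp0, chr12:46718371-46718400, minus strand: caccgcaCTTCTCTCgccaggcgtcctcat
Rpl10, chrX:157205840-157205869, plus strand: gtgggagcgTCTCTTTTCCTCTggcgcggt
Rps4x, chrX:71342902-71342931, minus strand: cgcgcgcagCCTCCgaccctaatttcttcg
Rpl22l1, chr2:113683186-113683215, plus strand: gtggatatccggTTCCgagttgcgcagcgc
Rpl3l, chr10:14258436-14258465, plus strand: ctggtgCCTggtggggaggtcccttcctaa

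The table held 68 promoters of 67 member genes. In 23 of the 68 (33.8%) the annotated first base was a C followed by 4 pyrimidines, against 2.63% of all 33469 promoters. A run of at least 8 pyrimidines reached within 5 bases of the start in 38 (55.9%), against 8.67% of all promoters, and the median run was 9 bases against 3. A match of letters is a description of this window and no measurement of translation.

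The core letters of ETS family factors such as GABP, CTTCCG on either strand, were searched in the 100 bases before the start. They occurred in 24 of the 68 member promoters (35.3%) and in 8.37% of all. The letters CTTCC are pyrimidines, so this motif can overlap a pyrimidine run. Rps18 and Rps7 are printed because both hold the core more than once, marked in capitals, and both recur among the values described here.
Rps18, chr20:4933645-4933744, plus strand: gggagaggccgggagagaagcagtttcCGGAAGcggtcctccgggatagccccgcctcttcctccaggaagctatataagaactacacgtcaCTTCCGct
Rps7, chr6:50999446-50999545, minus strand: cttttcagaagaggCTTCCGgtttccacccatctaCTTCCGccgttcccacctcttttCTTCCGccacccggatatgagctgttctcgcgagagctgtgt

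Each array held 62976 spots, of which 59.2% to 67.8% of the probes that are not controls were well above background on an array and 0 were saturated; the number of arrays limits the precision. Control replicates 1 and 2 and dibromoethane replicate 2 shared slide 1, control replicate 3 and dibromoethane replicate 1 shared slide 2, and dibromoethane replicate 3 lay on slide 3. Levels are log2 of the processed signal minus the 75th percentile of the array, and a difference is the mean of the treated minus the mean of the control rats on that scale. A gene is represented by its brightest probe, and levels are not compared between probes. The test is limma over all 28961 features well above background on all arrays of a group, and p-values are adjusted over all of them by Benjamini-Hochberg, with calls under 0.05.

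The comparison asks how messengers of the translation machinery differed between treated and control rats. Of the 84 genes, 82 were tested, and 0 passed (background: 0.0311% of all features). The lowest adjusted p among members was 0.323 in limma. In all, 78 of 82 had a lower value in treated rats (background: 53.5% of features lower), with a median log2 difference of -0.141, a change of -9.31%; with scaling on spike-in controls, described further on, the median was 0.024 and 27 of 82 were lower. The middle 50% of members ran from -0.176 to -0.111, while all features had a median of -0.015. Before adjustment, 18 members were lower at a limma p under 0.05 (background: 6.64%) and 0 were higher (background: 4.53%).

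The error of a single member was of the same order as its difference. The median standard error was 0.076 and the median SD within a group 0.067, against 0.143 over all features. In 46 of the 82 members each treated rat lay below each control (background: 12.1%), and in 0 each lay above (background: 7.37%). The count of 18 was 9 when control replicate 1 was left out (background: 5.12%) and 5 when control replicate 2 was (background: 3.97%). It was 6 without dibromoethane replicate 1 (background: 5.13%), and leaving out dibromoethane replicate 3 gave 10 (background: 4.63%).

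Array by array, most members stood on the same side of their own mean. The median over members of the level minus the gene's own mean over 6 arrays was 0.093, 0.087 and 0.044 in control replicates 1 to 3. It was -0.117, -0.035 and -0.062 in dibromoethane replicates 1 to 3. The groups did not overlap, and dibromoethane replicate 1 was farthest from the controls, with 6 of 82 members above their own mean against 67 to 72 in controls and 22 and 16 in the other treated rats. The group means were 0.075 ± 0.027 (SD, n = 3) and -0.072 ± 0.042 (SD, n = 3). Within slide 1 the median difference of the members was -0.127, with 77 of 82 lower (background: 55.8%), and within slide 2 it was -0.170, with 79 lower (background: 55.5%). With slide as a fixed block it was -0.144. Of the 2896 features in the brightest class, 2080 were lower within slide 1 and 2030 within slide 2, with median differences of -0.084 and -0.082.

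**Figure D1:**
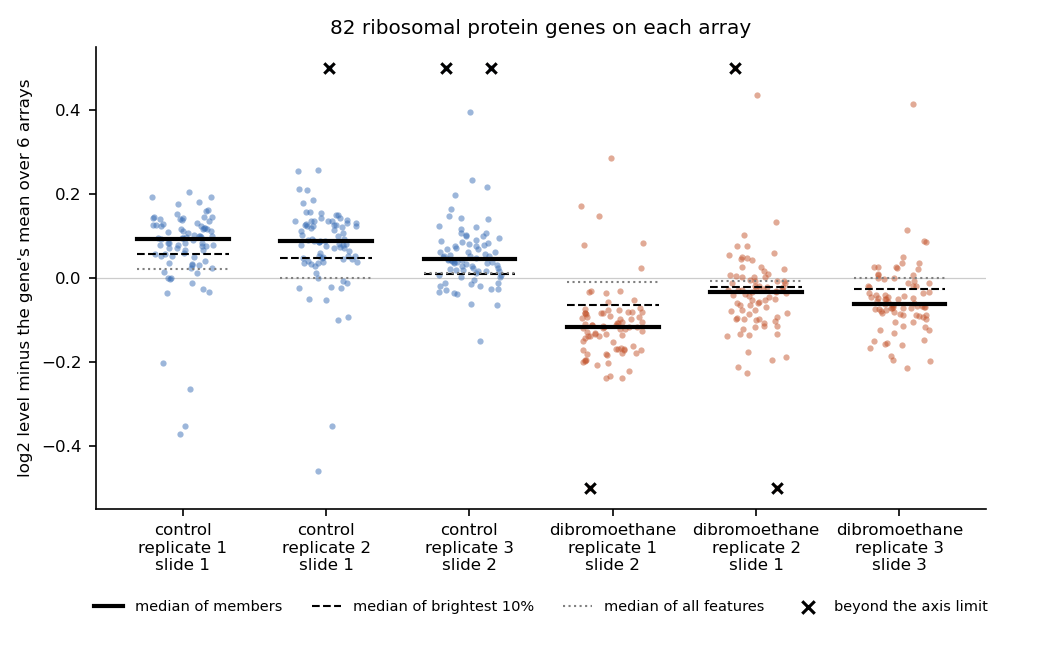
Log2 level of each of 82 ribosomal protein genes minus that gene's mean over the 6 arrays (vertical axis), by array; thick lines are medians of the members, dashed lines of the brightest 10% of all features and dotted lines of all features, and crosses are values beyond the axis. The member medians are 0.093, 0.087 and 0.044 in controls and -0.117, -0.035 and -0.062 in treated rats, an order that overlaps between groups when arrays are scaled on the E1A spike-ins.

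Large subunit genes were lower in 41 of 41 members, with a median of -0.140 (26 with no overlap between the groups, 10 at an unadjusted p under 0.05, 0 past the adjusted threshold; background 12.1% and 6.64% of all features, 29.2% and 12.9% of the brightest 10%, which holds all 41); with spike-in scaling the median was 0.025 and 15 of 41 were lower. Rpl14, whose tract is the first of those printed, had log2 levels of 7.41, 7.55 and 7.40 in controls and 7.09, 7.22 and 7.10 in treated rats. All treated rats lay below all controls, and the difference was -0.32 (SE 0.08, limma adjusted p = 0.333), a change of -19.9%. Its other tested probe gave -0.25, and the difference was -0.26 within slide 1 and -0.31 within slide 2.

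Rpl22, an RNA-binding protein of the large subunit known for its part in lymphocyte development, stood at 6.32, 6.33 and 6.27 in controls and 6.01, 6.08 and 6.14 in treated rats. The groups were apart, by -0.23 (SE 0.07, limma adjusted p = 0.364). Rpl35, which lies near the exit of the peptide tunnel, stood at 8.10, 8.12 and 8.12 against 7.93, 7.83 and 7.93. Here too the groups were apart, by -0.22 (SE 0.07, limma adjusted p = 0.365).

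Rpl12, which with Rplp0 forms the base of the stalk, was measured at 6.37, 6.43 and 6.11 in controls and 5.94, 6.20 and 6.01 in treated rats. The groups overlapped in control replicate 3, and the difference of -0.25 had a SE of 0.12. Rpl35a, one of the genes mutated in Diamond-Blackfan anaemia, a failure of red cell production, stood at 7.31, 7.38 and 7.19 against 6.97, 7.19 and 6.97. Its groups met in control replicate 3 and dibromoethane replicate 2 (-0.25, SE 0.10, limma adjusted p = 0.428).

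Rpl5, Rpl11 and Rpl23 bind Mdm2 when ribosome assembly is disturbed and so release p53. Rpl23 stood at 7.42, 7.41 and 7.35 in controls and 7.16, 7.15 and 7.20 in treated rats, with groups apart by -0.23 (SE 0.06, limma adjusted p = 0.359). Rpl11 stood at 7.15, 7.15 and 7.03 against 6.93, 7.01 and 6.79. Its groups were apart as well, though control replicate 3 and dibromoethane replicate 2 nearly met (-0.20, SE 0.09). Rpl5 gave 5.53, 5.50 and 5.57 in controls and 5.40, 5.39 and 5.58 in treated rats, so that dibromoethane replicate 3 lay above every control (-0.077, SE 0.081).

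Rpl3, which shapes the peptidyl transferase centre, differed by -0.15 (SE 0.09), and Rpl13a, a member of a complex that represses inflammatory messengers, by -0.14 (SE 0.09). The 3 large subunit members with the smallest differences were Rpl30 (-0.085, SE 0.072), Rpl5 and Rpl10, a protein that joins the subunit late in its assembly (-0.063, SE 0.087). The start of Rpl10 carries a run of 13 pyrimidines, as printed. On its brightest probe Rpl19 was the least even large subunit gene, with 7.04, 7.53 and 7.79 in controls, 7.31, 7.28 and 7.42 in treated rats and a SE of 0.19. Its other probes had a SE of 0.076 to 0.10, with control replicate 1 the highest of the controls and not the lowest.

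Small subunit genes were lower in 29 of 30 members, with a median of -0.155 (17 with no overlap, 7 at an unadjusted p under 0.05, 0 past the adjusted threshold; background 12.1% and 6.64%, in the brightest 10% of features 29.2% and 12.9%); with spike-in scaling the median was 0.010 and 10 of 30 were lower. Rps18, a protein of the head that contacts the large subunit, stood at 7.50, 7.48 and 7.40 in controls and 7.07, 7.22 and 7.14 in treated rats. No treated rat overlapped a control, and the difference was -0.31 (SE 0.08, limma adjusted p = 0.323), with -0.27 within slide 1 and -0.33 within slide 2. Rps18 had the lowest adjusted p of all members and was read by 1 probe.

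Rps20, also of the head, stood at 7.57, 7.61 and 7.51 in controls and 7.24, 7.34 and 7.28 in treated rats. No treated rat reached a control, and the difference was -0.28 (SE 0.07, limma adjusted p = 0.331). Rps7, another Mdm2-binding protein and one of the anaemia genes, was even within groups, at 6.30, 6.32 and 6.31 against 6.08, 6.09 and 6.03. The difference was -0.24 (SE 0.06, limma adjusted p = 0.346), against -0.10 on the second probe of the gene. Rps10, a site of ubiquitylation on stalled ribosomes, stood at 7.34, 7.35 and 7.31 against 7.12, 7.15 and 7.17, again with groups apart (-0.19, SE 0.06, limma adjusted p = 0.388). Its other probes gave -0.055 (SE 0.095) and -0.033 (SE 0.11), with groups that overlapped.

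Rps6, the substrate of the S6 kinases and the usual readout of mTOR activity through its phosphorylation, which arrays do not measure, stood at 7.75, 7.77 and 7.73 in controls. In treated rats it stood at 7.56, 7.64 and 7.63, below all controls, a difference of -0.14 (SE 0.07, limma adjusted p = 0.489). Rps3, which lines the entry of the messenger RNA, differed by -0.18 (SE 0.07), and Rps14, lost in the 5q deletion form of myelodysplasia, by -0.18 (SE 0.07). Rps27a, made as a fusion with ubiquitin, gave -0.15 (SE 0.07), and Rps27 gave -0.15 (SE 0.09).

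At the other end of the small subunit stood genes whose groups overlapped. Rps26, which lies at the exit of the messenger RNA, differed by -0.098 (SE 0.084), and Rps19, the gene most often mutated in Diamond-Blackfan anaemia, by -0.036 (SE 0.089). Rpsa, also known as the laminin receptor, differed by -0.041 (SE 0.13) on its brightest probe, while its other 3 probes gave 0.085, 0.088 and 0.092. Rps4x, the X-linked gene of its pair, stood at 4.79, 4.69 and 4.73 in controls and 4.83, 4.70 and 4.72 in treated rats, a difference of 0.009 (SE 0.073). Rps4y2 gave -0.011 (SE 0.12). With Rpl3l, Rpl37al2 and Rps12l4, Rps4x was 1 of the 4 members that were higher.

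The stalk is the flexible arm of the large subunit that recruits elongation factors. Rplp0, its base, had levels of 8.48, 8.58 and 8.46 in controls and 8.32, 8.49 and 8.35 in treated rats. Dibromoethane replicate 2 overlapped the controls, and the difference was -0.12 (SE 0.08, limma adjusted p = 0.598; 0.043 with spike-in scaling). Its 3 probes ran from -0.16 to -0.005. Rplp1 differed by -0.11 (SE 0.07) with groups apart, and Rplp2 by -0.14 (SE 0.08) with groups that overlapped; with spike-in scaling they gave 0.053 and 0.023.

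Of the 10 paralogues, 8 were tested, 5 of them lower and 3 higher (median -0.112, 2 lower with no overlap, 1 at an unadjusted p under 0.05), near the background of 53.5% lower, 12.1% apart and 6.64% under that p; with spike-in scaling the median was 0.053 and 2 of 8 were lower. Rpl37l1 had 7.69, 7.71 and 7.59 in controls and 7.37, 7.52 and 7.44 in treated rats, groups apart by -0.22 (SE 0.08, limma adjusted p = 0.398). Rpl36al1 was lower by the same pattern (-0.14, SE 0.07), and Rplp1l1 overlapped (-0.11, SE 0.10). Rpl22l1, the paralogue of Rpl22, differed by -0.11 (SE 0.09), with 2 of its 4 probes lower.

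The remaining paralogues varied widely between rats of a group. Rpl30l3 stood at 1.03, 1.67 and 1.55 in controls and -0.66, 1.44 and 0.99 in treated rats. Its difference of -0.82 (SE 0.55), the lowest of the members, rests on dibromoethane replicate 1, and within slide 1, which lacks that array, it was 0.091. Rpl3l, the striated muscle counterpart of Rpl3, differed by 0.39 (SE 0.29), with -3.26 in dibromoethane replicate 2 and -4.43 to -3.92 on the other arrays. Rpl37al2 (0.13, SE 0.35) and Rps12l4 (0.14, SE 0.12) were also within their spread. Rpl27l2 and Rpl39l1 were not well above background on all arrays of a group and were not tested.

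**Figure D2:**
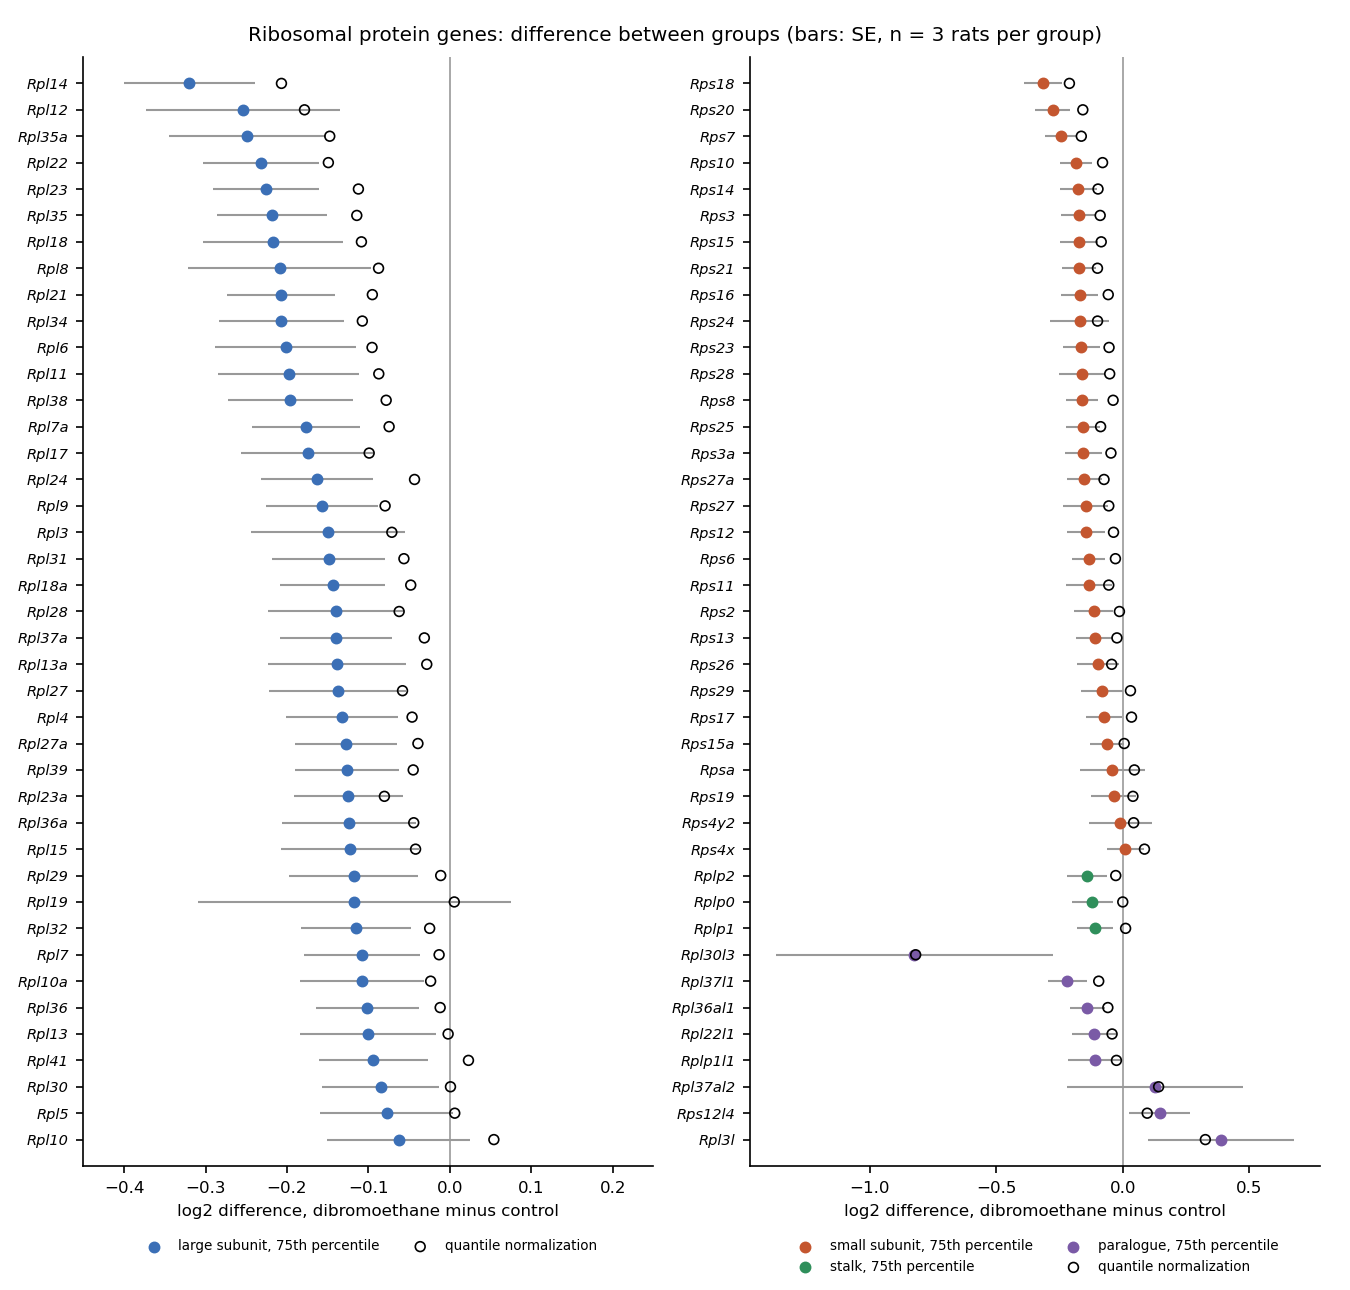
Log2 difference, dibromoethane minus control, of the 82 tested genes (horizontal axis), by gene, with large subunit genes on the left and small subunit, stalk and paralogue genes on the right on a wider scale; filled points are values relative to the 75th percentile with SE bars (n = 3 rats per group), and open points are values under quantile normalization. Filled points lie below 0 for 78 genes and open points for 66, and most quantile values are nearer to 0; with E1A spike-in scaling, not drawn, 27 genes lie below 0.

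Separate probes for 1 gene mostly gave the same sign. Of 244 member probes 239 were tested, and 228 of these were lower, with a median difference of -0.130. In 68 of the 72 genes with more than 1 tested probe all probes were lower; Rps16, Rps26, Rpsa and Rpl22l1 were the exceptions. The median range between the probes of a gene was 0.061, and the widest was 0.30, in Rps16, where 3 probes gave -0.17, -0.15 and -0.10 and a dimmer probe 0.13. Ribosomal protein genes have many processed copies in the rat genome, and whether probes also bound transcripts of such copies was not tested.

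The members are bright, and bright probes in general stood lower on this scale. When the tested features were ranked by mean level in 10 classes of equal size, the brightest 10% held 77 of the 82 members and had a median difference of -0.079 over its 2896 features, with 71.8% lower. The classes below it stood at -0.033, -0.017 and -0.006, and the dimmest at 0.001. Members in the brightest 10% had a median of -0.144, and the other 2819 features there one of -0.077. Members apart and lower were 46 of 77 in this class (background in the class: 29.2%), and members at an unadjusted p under 0.05 and lower were 18 of 77 (background in the class: 12.9%). Most members are brighter than this class as a whole. Other features at or above the members' median level numbered 449. These had a median of -0.095, with 82.2% lower, 39.4% apart and lower and 11.8% lower at an unadjusted p under 0.05. Of the 41 members in that range 41 were lower, 28 apart and lower and 14 lower at an unadjusted p under 0.05, with a median of -0.162.

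**Figure D3:**
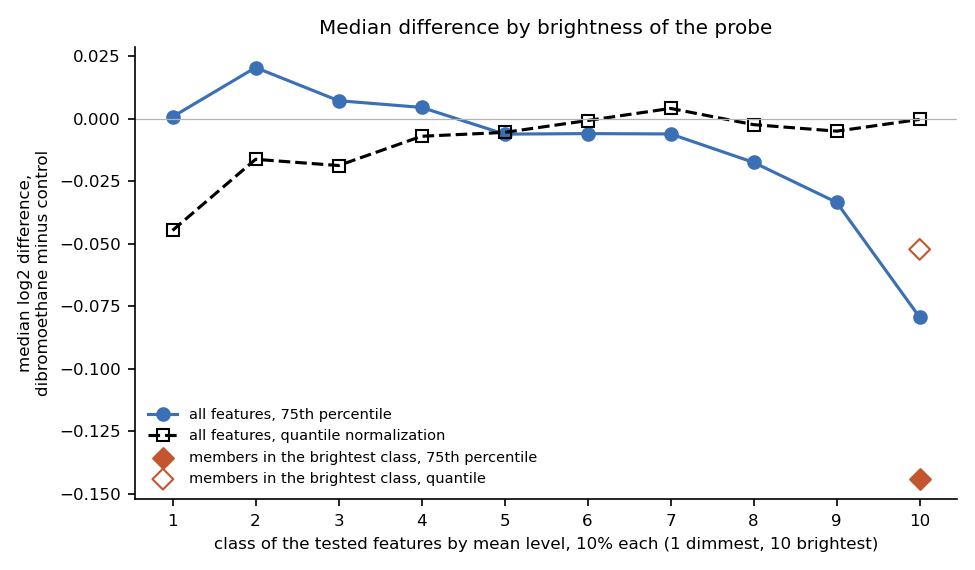
Median log2 difference, dibromoethane minus control, by class of the 28961 tested features ranked on mean level, relative to the 75th percentile (filled circles) and under quantile normalization (open squares), with diamonds for the ribosomal protein genes in the brightest 10%. The filled line falls to -0.079 in the brightest 10% and the diamonds stand below their lines, at -0.144 and -0.052; neither is scaled on the E1A spike-ins, where both medians are positive.

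Quantile normalization, which gives all arrays the same distribution, set the brightest 10% to -0.0002. Under it the members had a median of -0.048, with 66 of 82 lower (background: 51.7%), 24 apart and lower (background: 10.2%; in the brightest 10% of features 13.6%; among the 449 bright others 11.4%, with 44.1% lower), 1 apart and higher (Rps4x; background: 8.4%). Under a p of 0.05 before adjustment limma put 4 members, Rpl14, Rps18, Rps20 and Rps7, all lower (background: 5.98%). The array medians were 0.027, 0.030 and 0.036 in controls and -0.038, -0.012 and -0.022 in treated rats, still without overlap. Rpl14 then gave -0.21, Rps18 -0.21, Rpl12 -0.18, Rps7 -0.16 and Rps20 -0.16, whereas Rpl10 (0.054), Rpl5 (0.006), Rpl30 (0.0008), Rplp1 (0.011) and Rps19 (0.040) turned positive.

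Another scale came from E1A transcripts, foreign RNAs that Agilent's labelling kits add in set amounts, read by 35 spots each. The 6 bright ones used differed by -0.20 to -0.13 between treated and control arrays relative to the 75th percentile, so that scaling on them raised all features by 0.165. The members' median became 0.024 beside 0.150 for all features, with 27 of 82 lower (background: 19.6%), 3 apart and lower (Rpl14, Rps18 and Rps20; background: 1.95%) and 1 apart and higher (Rps12l4; background: 17.4%). Its array medians were 0.123, -0.100 and -0.045 in controls and -0.025, -0.019 and 0.077 in treated rats, which overlap. The distance of the members from all features was -0.126 on the 75th percentile and on the spike-ins, and -0.041 under quantile normalization. In all 24 alternatives run the members lay below the median of all features, by 0.041 to 0.169. Not all of these could differ: spike-in scaling and median centring shift all features of an array alike, which leaves this distance as it was. The replicate block and scan day, balanced between the groups, and trend and robust, which alters only the errors, leave it at -0.126 by design. Only slides with both groups gave the same medians as slide as a fixed block. It is a distance from all features, not from equally bright ones.

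**Figure D4:**
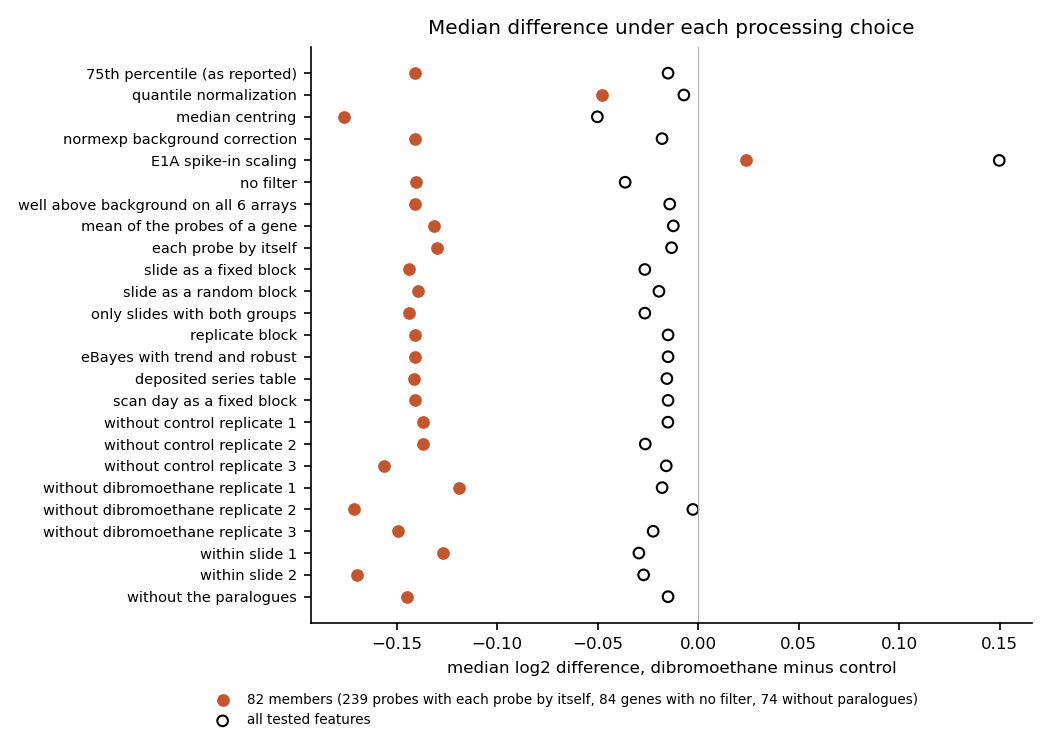
Median log2 difference, dibromoethane minus control, of the ribosomal protein genes (filled) and of all tested features (open) under each processing choice (rows). The members lie to the left of all features in every row, near -0.14 in most, at -0.048 under quantile normalization and at 0.024 with E1A spike-in scaling. Rows that shift all features of an array alike cannot change the distance between filled and open points.

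The size of a difference varied little with the letters at the annotated start. The 23 tested genes with a C and 4 pyrimidines at the start had a median of -0.156, and the 42 without had -0.140. Genes with a run of at least 8 numbered 38 with a median of -0.148, and the 27 others had -0.142. Both splits rest on the annotated start. Rps23, Rpl27a and Rpl29, with runs of 21, 20 and 18, count as without a C and 4 pyrimidines there. Rpl21 and Rps3 count as under 8, although a pyrimidine run ends shortly before their start. Where these messengers start in the renal cortex was not tested, so the splits do not separate genes with a TOP tract from genes without.

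Other genes of the translation machinery were taken from lists, of which 0 members passed the adjusted threshold in limma. Their counts at an unadjusted p under 0.05 are to be read against 6.64% of all features lower and 4.53% higher. Of 5 other ribosome components, 5 were lower, with a median of -0.057; under quantile normalization 2 were lower (median 0.0008) and with spike-in scaling 0 (median 0.108). Fau, a fusion of a ubiquitin-like protein with Rps30, differed by -0.071 (SE 0.071). Of 21 other TOP messengers, 17 were lower (median -0.096; quantile 14, -0.040; spike-in scaling 4, 0.069), 2 at an unadjusted p under 0.05: the poly(A)-binding protein gene Pabpc1 (-0.29, SE 0.10) and the histone chaperone gene Nap1l1 (-0.22, SE 0.08).

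Among translation factors, 9 of 14 elongation and termination genes were lower (median -0.055; quantile 9, -0.036; spike-in scaling 1, 0.110), with 0 at an unadjusted p under 0.05 in either direction. Eef2, which moves the ribosome along the messenger and is itself a TOP gene, had a value of 0.10 (SE 0.08) and Eef1a1, which delivers the transfer RNAs, one of 0.018 (SE 0.11). Both were chosen for their known role after their values were seen. Of 33 initiation factors, 22 were lower (median -0.061; quantile 16, 0.004; spike-in scaling 8, 0.104) and 3 reached an unadjusted p under 0.05, all lower: Eif3i (-0.23, SE 0.07), Pabpc1 and Eif3j (-0.30, SE 0.11).

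Genes that make ribosomes gave mixed signs, with 44 of 75 biogenesis factors lower (median -0.053; quantile 43, -0.027; spike-in scaling 11, 0.112), 5 lower and 2 higher at an unadjusted p under 0.05. Polr1a, the largest subunit of RNA polymerase I, which transcribes ribosomal RNA, stood at -1.71, -1.65 and -1.56 in controls and -1.16, -1.30 and -1.27 in treated rats. Every treated rat lay above every control, by 0.39 (SE 0.08, limma adjusted p = 0.251). Gnl3, nucleostemin, differed by -0.20 (SE 0.06), and Rrp9, of the small subunit processome, was the other one higher, by 0.26 (SE 0.09). Mitochondrial ribosomal proteins, encoded by a separate gene family, were lower in 49 of 67 (median -0.062; quantile 41, -0.011; spike-in scaling 5, 0.103), 2 lower and 1 higher at an unadjusted p under 0.05, with Mrpl20 at -0.26 (SE 0.07), Mrps34 at -0.29 (SE 0.09) and Mrps27 at 0.24 (SE 0.08).

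Of 24 regulators of ribosomal protein synthesis, 16 were lower (median -0.035; quantile 13, -0.017; spike-in scaling 3, 0.130), 3 lower and 2 higher at an unadjusted p under 0.05. Ddit4, an inhibitor of mTOR that is induced by stress, stood at 2.61, 2.45 and 1.99 in controls and 1.66, 1.43 and 1.48 in treated rats. The groups were apart by -0.83 (SE 0.17, limma adjusted p = 0.263). Max, the partner of Myc, differed by -0.26 (SE 0.07) and Myc, which activates ribosomal genes, by -0.33 (SE 0.10). The 2 higher were Mycn, a relative of Myc (0.96, SE 0.26), and Sesn2, which restrains mTOR when leucine is short (0.24, SE 0.10). Of 8 genes of the p53 pathway and ribosome stress, 2 were lower (median 0.035; quantile 1, 0.062; spike-in scaling 0, 0.200), with 0.21 (SE 0.09) for Mdm2 and 0.23 (SE 0.12) for Ccng1 and 0 at an unadjusted p under 0.05.

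Cell type markers were summed on the linear scale and 75th percentile scaling, in units of the array's 75th percentile. All 5 proximal tubule markers listed were tested, 4 of them lower (median -0.077; quantile 1, 0.027; spike-in scaling 1, 0.088), with sums of 943.9 to 967.3 in controls and 865.6 to 916.8 in treated rats. Blood cell markers (3 of 4 tested, 2 lower) summed to 191.9 to 222.9 and 139.2 to 167.5, and liver markers (5 of 5 tested, 5 higher) to 1.39 to 7.44 and 9.02 to 33.8. Thick ascending limb markers (3 of 3 tested, 3 lower) summed to 315.8 to 341.4 and 135.6 to 351.7, and proliferation markers (3 of 4 tested, 3 lower) to 3.01 to 3.52 and 2.76 to 3.04. On this scaling these sums differed between the groups or in single rats, and their part in the values of the ribosomal protein genes was not tested. Marker medians were 0.079 for distal tubule with collecting duct, -0.022 for podocytes, 0.017 for endothelium, 0.007 for macrophages and -0.055 for lymphocytes, of which 3 of 6 markers were tested. Single immune markers went both ways. Macrophage markers ran from -0.54 to 0.17, with 2 of 6 lower at an unadjusted limma p under 0.05 (background: 6.64%). Lymphocyte markers ran from -0.36 to 0.94, with 1 of 3 higher at that p (background: 4.53%).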

How the data were processed

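Cy3-labelled RNA of renal cortex was read on Agilent arrays of 1 colour (labels' protocols). The deposited intensity values per spot come from Feature Extraction 10.7.1.1, array design 045522, grid build rn4, per the file headers, with background already subtracted in the processed signal. The deposited series table holds intensity values equal to the processed signal divided by the array's 75th percentile. The submitters' processing notes name Feature Extraction 10.7. Probes were named by matching accessions to a RefSeq gene table of GRCr8, which differs from rn4 and gave 28206 probes 1 symbol; coordinates printed are those of GRCr8.

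Values were scaled as the report says, without control spots, 84 ERCC spike-in probes and outlier spots (1 to 11 per array). The test was two-sided, without covariates, by limma 3.58.1 (lmFit, eBayes) under R 4.3.3. It had 4 residual degrees of freedom and 2.05 from the prior. Tested on simulated data with 28961 features, this recovered 65 of 100 features changed by a log2 of 1 and 91 of 100 changed by 2, with 11 false calls. Differences as small as those of most members were not simulated, so this does not tell how many such differences would be called. The labels describe 3 animals per group.

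The members and lists were chosen with earlier results of these data known. Named were all stalk genes and paralogues, per subunit the 4 smallest p and the 3 highest and 3 lowest differences, a set with known roles, and 2 genes per list (1 of them is not reported here); Rpl19, Eef2, Eef1a1, Eif3j, Rrp9, Mrps27, Myc, Mycn, Sesn2 and single probes were chosen after their values were seen. Alternatives were quantile normalization, median centring, normexp (on the spots' median signal and median background, offset 50, because the mean signal that had been planned was not used here), the filter, the choice of probes, slide and replicate blocks, trend and robust, the series table, leaving out paralogues and leaving out each array. Scaling on E1A spike-ins, scan day and within-slide values were chosen after seeing the data.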

Additional observations from a re-analysis of the deposited data

How the results depend on the processing

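No member passed an adjusted p of 0.05 in limma under any alternative, the lowest being 0.144 with trend and robust. At an unadjusted p under 0.05, 18 members were lower (6.64% of all features), against 4 with quantile normalization (5.98%), 8 with median centring (6.39%), 7 without a filter (2.91% of 48892 features), 11 with the replicate block (7.01%), 27 with slide as a random block (8.25%), 44 with trend and robust (7.83%) and 0 with E1A scaling (1.32%); with each probe by itself 44 of 239 probes were (6.58%). Leaving out 1 array gave 5 to 14 (3.97% to 6.68%), 0 members called and medians of -0.171 to -0.119. The median of -0.141 was -0.048 with quantile normalization and 0.024 with E1A scaling; with median centring it was -0.176, a move about equal to the SD of 0.035 between arrays of a group, and the other settings moved it by less. Both groups carry replicate numbers 1 to 3, and the labels do not say whether these pair animals. Deviations of same-numbered rats correlated at -0.19, 0.26 and 0.16 across features, and those of differently numbered rats at -0.32 to 0.20. With 3 arrays per group and slides shared in part, these values cannot decide whether the numbers pair rats. The replicate block gave 0 called and a median of -0.141, which a balanced block leaves unchanged by design.

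Of the 37 named genes, these changed sign. E1A scaling gave Rpl10 0.10, Rpl13a 0.026, Rpl22l1 0.051, Rpl3 0.015, Rpl30 0.080, Rpl36al1 0.024, Rpl5 0.087, Rplp0 0.043, Rplp1 0.053, Rplp1l1 0.054, Rplp2 0.023, Rps19 0.13, Rps26 0.066, Rps27 0.017, Rps27a 0.012, Rps4y2 0.15, Rps6 0.029 and Rpsa 0.12. Quantile normalization gave Rpl10 0.054, Rpl30 0.00075, Rpl5 0.0060, Rplp1 0.011, Rps19 0.040, Rps4y2 0.042 and Rpsa 0.045. The mean of a gene's probes gave Rpsa 0.056, median centring Rps4x -0.026, and normexp Rps12l4 -0.028 and Rps4y2 0.026. Slide as a fixed block and only slides with both groups gave Rpl37al2 -0.19. Within slide 1 Rpl22l1 was 0.038, Rpl30l3 0.091, Rpl37al2 -0.15 and Rps4x -0.046, and within slide 2 Rpl37al2 was -0.25, Rpl3l -0.29 and Rps4y2 0.029. With 1 array left out, Rpl37al2 ran from -0.072 to 0.43, Rps4x from -0.030 to 0.036, Rps4y2 from -0.10 to 0.093, Rpsa from -0.10 to 0.062 and Rps19 from -0.10 to 0.014. Apart from the number of features tested, the cause was not tested.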
